A study of Drosophila melanogaster with 12 samples.

Results

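The 8 genes described here make, coat and break down stored fat in the fat body of Drosophila melanogaster larvae. They are mdy, CG4729, CG3209 and Lpin, which act in triglyceride synthesis, Lsd-1 and Lsd-2, which coat lipid droplets, and the lipases bmm and Hsl. They were chosen by name from a table of 10047 genes, in which 7 of the 8 were found by symbol. Hsl was found by its gene identifier, FBgn0034491, under the symbol CG11055. The current names of CG4729 (FBgn0036623) and CG3209 (FBgn0034971) are Agpat3 and Gpat4. The identifiers of the others are FBgn0004797 for mdy, FBgn0263593 for Lpin, FBgn0039114 for Lsd-1, FBgn0030608 for Lsd-2 and FBgn0036449 for bmm.

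The fat body is the main fat store of the fly and combines roles that the liver and adipose tissue have in mammals. Triglyceride is built by adding fatty acids to glycerol 3-phosphate, removing the phosphate, and adding a last fatty acid, and it is kept in droplets whose surface proteins govern how lipases reach it. Flies that lack bmm become fat, and larvae reared on much sugar are known to store more triglyceride.

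RNA of female larvae, collected when they leave the food at the end of larval growth, was sequenced after removal of ribosomal RNA, with 3 libraries in each of 4 groups. All larvae came from mothers carrying UAS-Dcr2 on the X chromosome, a transgene used to strengthen RNA interference, and r4-GAL4, a driver active in the fat body. The fathers were of VDRC stock 60000, a genotype that the titles spell vw1118 (vvw1118 in 1 of them), in the control groups and of VDRC stock 37058, with UAS-EcR RNAi against the ecdysone receptor, in the groups called EcRi here. Each genotype was fed 0.15 M or 0.5 M sucrose. RNAi was driven from a single stock, and the labels do not say how many animals a library holds or whether libraries came from separate cultures, so the spread behind each p-value is that among these libraries and may be technical.

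The deposited values are a normalised signal per gene, and the number of reads behind them is unknown. Signal sums were between 8864826 and 10966639 in 11 libraries and 15045575 in control 0.5 M replicate 1, which also held 47.8% of its signal in its 10 highest genes and lay farthest from its group mean. Where leaving that library out changed a call of the 8 genes, both values are given. EcR itself was not called different between libraries labelled EcRi and controls. Its log2 difference was -0.28 ± 0.17 (SE) on 0.15 M (adjusted p = 0.386) and -0.06 ± 0.17 on 0.5 M (adjusted p = 0.847). The mean signal on 0.15 M was 1132 in EcRi and 1380 in controls. These tests do not show that its level was the same, and EcRi below stands for the label. The white gene w, which marks transgenes of this kind, was higher in EcRi-labelled libraries on both diets, by 0.75 ± 0.19 (adjusted p = 0.0132) and 0.77 ± 0.19 (adjusted p = 0.00797), and Dcr-2 was not called on either. The 7 fat body markers, larval serum proteins among them, summed to between 1907620 and 4191060 in every library, well above each of the other cell-type lists. The highest sums in any library were 72208 for 9 muscle, 31278 for 7 salivary gland, 11332 for 7 midgut, 8905 for 6 hemocyte, 7016 for 4 nervous system, 1417 for 3 Malpighian tubule and 797 for 3 oenocyte markers, and no marker in the table was at 0. Of the 7 fat body markers 2 were called lower in EcRi than in control on 0.5 M, where 8.11% of all genes were. Within EcRi 1 was called lower on 0.5 M than on 0.15 M, against 10.4% of all genes. None was called higher in either comparison.

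Differences below are log2 differences of (signal + 1) with their standard errors, from limma fitted to all genes, and a gene counted as called where its p, adjusted by Benjamini and Hochberg over the whole table, was under 0.05. The 5 comparisons share libraries, so a gene's values in them are not independent. These are bulk samples, in which fewer cells of a type and less RNA per cell cannot be told apart.

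Levels were divided by exon length to allow comparison between genes. This assumes a signal not already scaled by length, which the sources used here do not state. On this scale Lsd-1 was the most abundant of the 8 in every group. Its mean ran from 2134 signal units per kb of exon in EcRi on 0.15 M to 5413 in control on 0.5 M. Lsd-2, at 287.8 to 411 signal units per kb, was next in 3 groups, while in EcRi on 0.15 M mdy, at 337, was above it. Without the division Lsd-2 was above mdy in that group, at a mean signal of 1323 against 907. The 4 synthesis genes lay between 116 and 357 signal units per kb, and bmm between 61.9 and 157. Hsl was lowest in every group, at 26.9 to 43.0 signal units per kb. In undivided signal only 143 genes of the table had a higher mean than Lsd-1, against 4820 for Hsl.

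**Figure D1:**
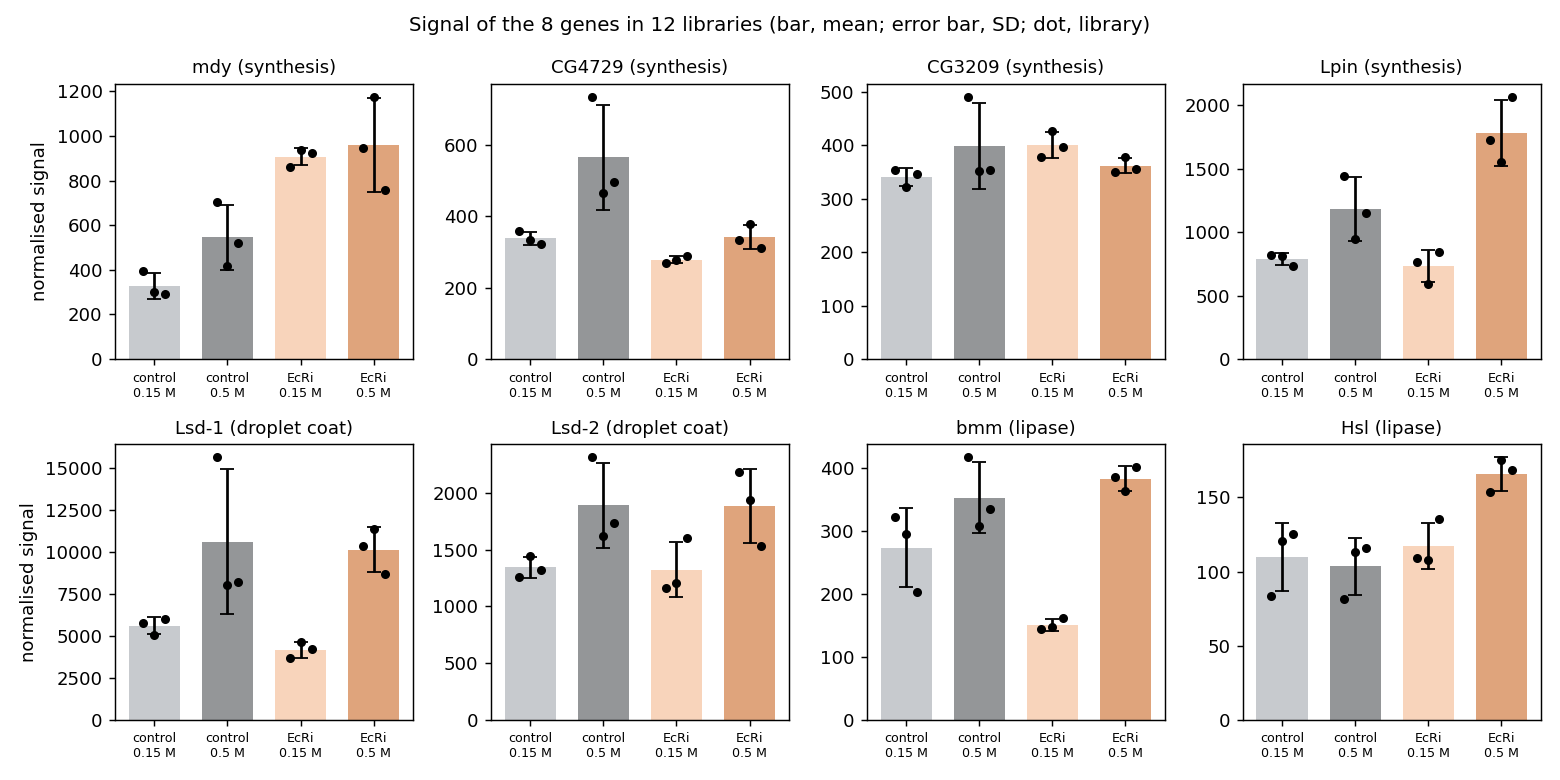
Normalised signal (linear axis from 0) of the 8 genes in the 4 groups of 3 libraries. Bars are means, error bars SD and dots libraries. mdy is high in both EcRi groups, bmm is lowest in EcRi on 0.15 M, and Lpin and Hsl are highest in EcRi on 0.5 M.

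The first comparison set EcRi against control on 0.15 M sucrose. Here mdy, a diacylglycerol acyltransferase that adds the last fatty acid, was 2.78-fold higher, and bmm, the fly counterpart of adipose triglyceride lipase, was lower, at 0.564 of the control level. The other 6 genes were not called. Among all genes 6.19% were called higher and 5.01% lower, and the members' counts were 1 and 1 of 8, with a median log2 difference of -0.08 against 0.04 over all genes.

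The signal of mdy in replicates 1, 2 and 3 was 396, 299 and 291 in controls and 863, 936 and 923 in EcRi. All EcRi libraries were above all controls, and the log2 difference was 1.47 ± 0.20 (adjusted p = 6.09e-05 by limma). For bmm the signal was 322, 295 and 202 in controls and 143, 147 and 162 in EcRi. The EcRi libraries were all below the lowest control, with little spread among them, and the log2 difference was -0.83 ± 0.17 (adjusted p = 0.00328).

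Hsl, the counterpart of hormone-sensitive lipase, had a signal of 83.8, 121 and 126 in controls and 109, 108 and 136 in EcRi. The groups overlapped, and the difference of 0.11 had a 95% interval from -0.30 to 0.51. Lsd-1, a perilipin that coats droplets and takes part in the access of lipases, had a signal of 5776, 5038 and 6006 in controls and 3689, 4638 and 4219 in EcRi. Its groups did not overlap, but the difference of -0.43 ± 0.23 was not called (adjusted p = 0.324). It was called under quantile normalisation, at -0.55 (adjusted p = 0.0106), and without control 0.5 M replicate 1, at -0.43 (adjusted p = 0.0466).

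The remaining 4 genes were not called. CG4729, an acyltransferase of the family that adds the second fatty acid, had a signal of 357, 332 and 323 in controls and 268, 278 and 288 in EcRi. These groups did not overlap either, with an uncalled difference of -0.28 ± 0.16 (adjusted p = 0.355). CG3209, a glycerol-3-phosphate acyltransferase of the first step, differed by 0.23 ± 0.14 (adjusted p = 0.408). Lpin, a lipin that removes the phosphate to give diacylglycerol, and Lsd-2, a perilipin that promotes storage, overlapped between genotypes, with differences of -0.12 ± 0.18 and -0.04 ± 0.19. All 7 measured salivary gland markers were called lower in EcRi in this comparison, where 5.01% of all genes were. With 1 library left out 4 to 7 of them were called. Their summed signal was 1320 to 3845 against 20198 to 23820 in controls, and the part of this in the results was not tested.

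**Figure D2:**
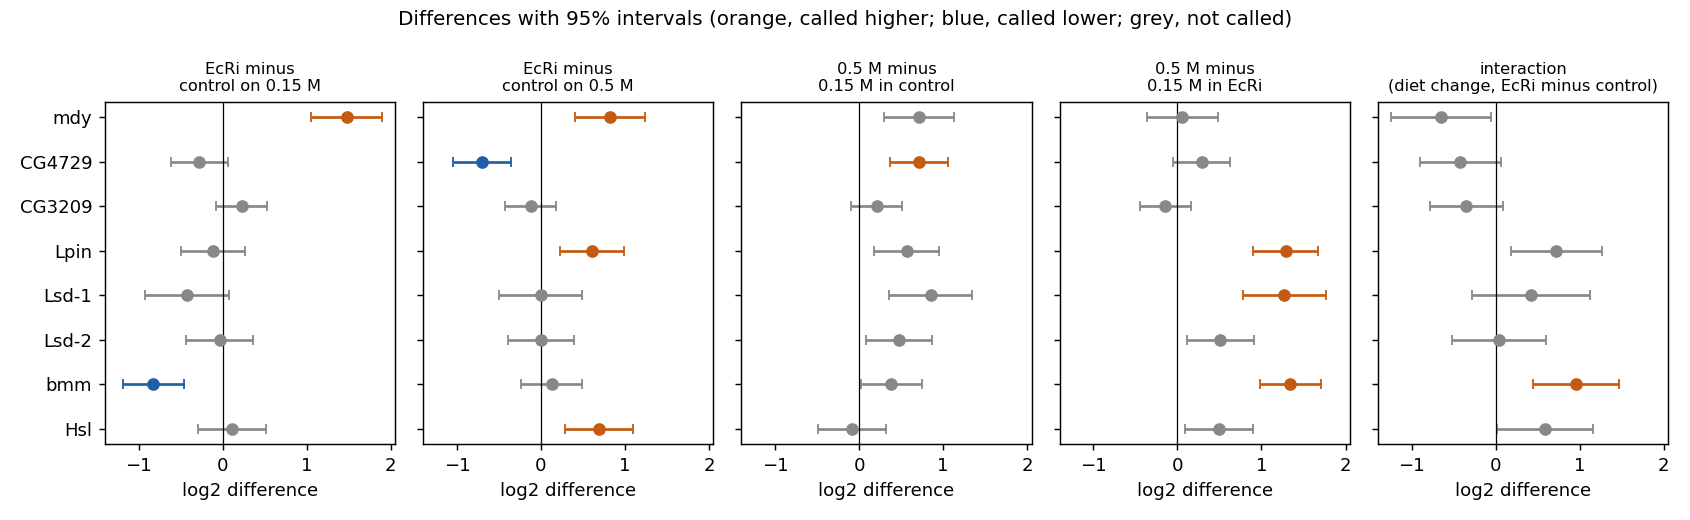
Log2 differences of the 8 genes in the 5 comparisons, as points with 95% intervals. Orange marks genes called higher, blue those called lower and grey those not called. mdy and bmm stand on opposite sides of 0 on 0.15 M sucrose.

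On 0.5 M sucrose EcRi differed from control in 4 of the 8 genes. mdy was again higher, 1.77-fold, Lpin was 1.52-fold and Hsl 1.61-fold higher, and CG4729 was lower, at 0.615 of the control level. The droplet coats and bmm were not called. Of the 8 genes 3 were called higher and 1 lower, where the shares among all genes were 10.9% and 8.11%, and the median log2 difference was 0.06 against -0.00 over all genes.

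The signal of mdy was 703, 416 and 518 in controls and 947, 1176 and 756 in EcRi. The lowest EcRi library was just above the highest control, and the log2 difference was 0.82 ± 0.20 (adjusted p = 0.00697). Without control 0.5 M replicate 1, the highest control, it was 1.02 (adjusted p = 0.000958).

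CG4729 had a signal of 734, 465 and 494 in controls and 334, 377 and 310.5 in EcRi. The groups were apart, and the log2 difference was -0.70 ± 0.16 (adjusted p = 0.00510), or -0.50 (adjusted p = 0.0125) without control 0.5 M replicate 1. So the synthesis genes mdy and CG4729 differed in opposite directions in the same libraries.

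The signal of Lpin was 1444, 948 and 1153 in controls and 1726, 1555 and 2067 in EcRi, again with no overlap. The difference of 0.60 ± 0.18 (adjusted p = 0.0267) was 0.76 (adjusted p = 0.00456) without control 0.5 M replicate 1. It was not called without control 0.5 M replicate 2 (0.46, adjusted p = 0.113) or replicate 3 (0.60, adjusted p = 0.0696), nor without EcRi 0.5 M replicate 1 (0.62, adjusted p = 0.0645) or replicate 3 (0.49, adjusted p = 0.119).

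Hsl had a signal of 81.5, 113 and 116 in controls and 154, 176 and 168 in EcRi. Its EcRi libraries were the 3 highest of the 12, and the difference was 0.69 ± 0.19 (adjusted p = 0.0173). It was not called without control 0.5 M replicate 1 (0.53, adjusted p = 0.0642) or without EcRi 0.5 M replicate 2 (0.65, adjusted p = 0.0637) or replicate 3 (0.68, adjusted p = 0.0517).

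For bmm the signal on this diet was 417, 308 and 335 in controls and 385, 363 and 402 in EcRi. The groups overlapped, with a difference of 0.13 and a 95% interval from -0.23 to 0.49. The gap in bmm seen on 0.15 M was thus not detected on 0.5 M, and the difference between the diets in this respect is the interaction tested below. Lsd-1, Lsd-2 and CG3209 also overlapped, with intervals from -0.50 to 0.49, -0.40 to 0.39 and -0.43 to 0.18. On this diet 4 of 7 salivary gland markers were called lower in EcRi, against 8.11% of all genes. With 1 library left out 2 to 5 of the 7 were called. The sums of the 7 were 1900 to 6949 against 7251 to 31278 in controls, and the part of this was not tested.

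The third comparison asked how the sugar-rich diet related to the genes in control larvae. The point estimates of 7 of the 8 genes were above 0, but only CG4729 was called, 1.64-fold higher on 0.5 M. Among all genes 1.55% were called higher and 0.169% lower in this comparison, so calls were rare in general, and the median was 0.52 for the members against -0.01 over all genes. For CG4729 the signals, listed above, were 323 to 357 on 0.15 M and 465 to 734 on 0.5 M, with no overlap. The difference was 0.71 ± 0.16 (adjusted p = 0.0328).

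The call of CG4729 was lost in 7 of the 12 fits that left out 1 library. Without control 0.5 M replicate 1 the difference was 0.51 (adjusted p = 0.0795). The other fits were those without each of the 3 control 0.15 M libraries, without control 0.5 M replicate 3, and without replicate 1 of either EcRi group, with differences of 0.68 to 0.79 and adjusted p from 0.0506 to 0.123.

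mdy, Lpin, Lsd-1 and Lsd-2 were each higher in every 0.5 M control library than in any 0.15 M one, yet were not called. The share of all genes separated in this way was not counted, so the separation is given only as a description. The largest difference was that of Lsd-1, whose signal was 15613, 8000.5 and 8213 on 0.5 M, at 0.85 ± 0.23 (adjusted p = 0.0832). Without control 0.5 M replicate 1, its highest library, it was 0.54 (adjusted p = 0.132). The differences of mdy and Lpin were 0.71 ± 0.20 (adjusted p = 0.0884) and 0.56 ± 0.18 (adjusted p = 0.155). Lsd-2, at 1264, 1446 and 1323 on 0.15 M and 2314, 1621 and 1737 on 0.5 M, differed by 0.48 ± 0.19 (adjusted p = 0.262). Without control 0.5 M replicate 1 the differences of mdy, Lpin and Lsd-2 were 0.51, 0.41 and 0.32 (adjusted p = 0.306, 0.408 and 0.595). Without control 0.5 M replicate 2, in contrast, mdy (0.89, adjusted p = 0.0224), Lpin (0.71, adjusted p = 0.0476) and Lsd-1 (1.02, adjusted p = 0.0288) were called higher. These 3 were also called with library weights (adjusted p = 0.00496, 0.0178 and 0.00876). The lipases overlapped between diets, bmm with a difference of 0.38 ± 0.17 (adjusted p = 0.324) and Hsl with -0.08 ± 0.19 (adjusted p = 0.875).

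In EcRi larvae the diet comparison called 3 genes higher on 0.5 M and none lower. These were bmm, 2.53-fold, Lpin, 2.44-fold, and Lsd-1, 2.42-fold, so the called genes were a lipase, a synthesis gene and a droplet coat. The shares among all genes were 14% higher and 10.4% lower, and the median was 0.50 for the members against -0.02 over all genes. By unadjusted p under 0.05, 3798 genes of the table passed in this comparison.

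The signal of bmm was 143 to 162 on 0.15 M and 363 to 402 on 0.5 M in these larvae, a gap several times the spread within either group. The log2 difference was 1.34 ± 0.17 (adjusted p = 8.30e-05). Lpin had a signal of 761, 595 and 842 on 0.15 M and 1726, 1555 and 2067 on 0.5 M, with no overlap and a difference of 1.29 ± 0.18 (adjusted p = 0.000182). For Lsd-1 it was 3689, 4638 and 4219 on 0.15 M and 10337, 11347 and 8671 on 0.5 M. Every 0.5 M library was above every 0.15 M one, and the difference was 1.27 ± 0.23 (adjusted p = 0.00136).

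Lsd-2 had a signal of 1162, 1206 and 1601 on 0.15 M and 2188.5, 1934 and 1534 on 0.5 M, so the groups overlapped in 1 library each. Its difference of 0.51 ± 0.19 was not called (adjusted p = 0.0568), nor was that of Hsl, 0.50 ± 0.19 (adjusted p = 0.0688), although the Hsl groups did not overlap. Whether they were called depended on the fit. Lsd-2 (adjusted p = 0.0213) and Hsl (adjusted p = 0.0373) were called higher without control 0.5 M replicate 1, which enters this comparison only through the shared estimate of spread. Both were also called with library weights (0.0309 and 0.0361) and with only the groups compared (0.0425 and 0.0327). Lsd-2 was called without EcRi 0.15 M replicate 3 (0.66, adjusted p = 0.0313) or EcRi 0.5 M replicate 3 (0.65, adjusted p = 0.0346), and Hsl without control 0.15 M replicate 1 (adjusted p = 0.0467). mdy was high on both diets, with a difference of 0.06 and a 95% interval from -0.36 to 0.48. CG4729 and CG3209 differed by 0.29 ± 0.16 and -0.14 ± 0.14, neither called.

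Of the 9 muscle markers 6 were called higher on 0.5 M in EcRi, where 14% of all genes were. With 1 library left out 1 to 8 of them were called. The 9 summed to 7387 to 25243 on 0.15 M and 33744 to 72208 on 0.5 M in these libraries, and the part of this was not tested. Scaling libraries by their upper quartile moved the median of all genes in this comparison from -0.02 to -0.23 and turned the split of calls over all genes from 1406 higher and 1045 lower to 773 higher and 1792 lower. bmm, Lpin and Lsd-1 stayed called higher under it.

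The interaction is the diet difference in EcRi minus that in control, and tests whether the genotypes answered the diet to a different extent. Of the 8 genes only bmm was called, at 0.96 ± 0.24 (adjusted p = 0.0388), which corresponds to a diet difference 1.94 times as large on the fold scale in EcRi. The shares among all genes were 2.59% higher and 1.33% lower, and the median was 0.23 for the members against -0.05 over all genes. bmm was lowest in EcRi on 0.15 M, and the other 3 groups overlapped with each other in pairs, except control on 0.15 M and EcRi on 0.5 M, which did not.

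The interaction of bmm was close to the threshold. It was not called without control 0.15 M replicate 1 or 2, control 0.5 M replicate 2 or 3, EcRi 0.15 M replicate 1 or 2, or any EcRi 0.5 M library, where the difference ran from 0.82 to 0.99 and the adjusted p from 0.0561 to 0.102. Without control 0.5 M replicate 1 it was 1.08 (adjusted p = 0.0176). The next largest terms were those of Lpin, 0.72 ± 0.26 (adjusted p = 0.117), mdy, -0.65 ± 0.28 (adjusted p = 0.188), and Hsl, 0.58 ± 0.27 (adjusted p = 0.224), none of them called. Lpin, at 0.88 (adjusted p = 0.0383), and Lsd-1, at 0.74 (adjusted p = 0.0476), were called without control 0.5 M replicate 1, while Lsd-1 was 0.42 (adjusted p = 0.503) with it.

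Storage was set against release within each library, where a factor common to the library cancels, as a description with no test. The ratio of mdy to bmm in signal per kb of exon was 1.11, 0.917 and 1.3 in controls on 0.15 M and 1.53, 1.22 and 1.40 in controls on 0.5 M. In EcRi it was 5.45, 5.76 and 5.17 on 0.15 M and 2.23, 2.93 and 1.71 on 0.5 M. Every EcRi library was thus above every control, and EcRi on 0.15 M stood above all others.

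The 4 synthesis genes were also averaged. The mean of their log2 values minus that of the 2 lipases was 1.28 ± 0.18 (SD, n = 3) in controls on 0.15 M, 1.67 ± 0.35 in controls on 0.5 M, 1.96 ± 0.08 in EcRi on 0.15 M and 1.41 ± 0.10 in EcRi on 0.5 M. It was higher on 0.5 M than on 0.15 M in the control means, where the libraries overlapped, and lower on 0.5 M in EcRi, where they did not. Control 0.5 M replicate 1, at 2.07, was the highest of the 12, and without it the mean of its group was 1.48. The lipase mean alone was lowest in EcRi on 0.15 M, at 7.06 ± 0.14, and highest in EcRi on 0.5 M, at 7.98 ± 0.05. The ratio of Lsd-1 to Lsd-2 per kb ran from 6.18 to 10.7 on 0.15 M and from 11.1 to 15.8 on 0.5 M over both genotypes, without overlap between the diets.

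**Figure D3:**
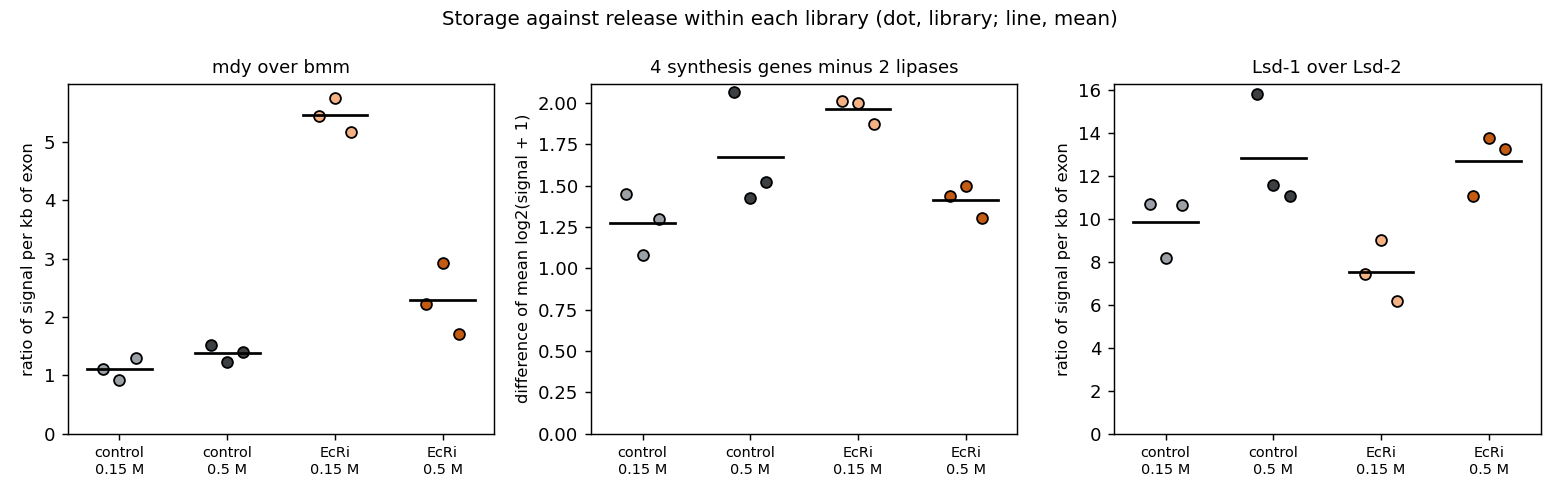
Ratio of mdy to bmm per kb of exon, mean log2 value of 4 synthesis genes minus that of 2 lipases, and ratio of Lsd-1 to Lsd-2 per kb, per library (dots) with group means (lines), all axes linear from 0. EcRi on 0.15 M stands highest for mdy over bmm, at 5.17 to 5.76.

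Over the 4 groups the order of means was control 0.15 M, control 0.5 M, EcRi 0.15 M and EcRi 0.5 M for mdy, from low to high, with a 2.92-fold range, and the EcRi groups were not told apart. For bmm and Lpin it was EcRi 0.15 M, control 0.15 M, control 0.5 M and EcRi 0.5 M, with ranges of 2.54-fold and 2.43-fold. The perilipins and CG4729 ranked EcRi 0.15 M, control 0.15 M, EcRi 0.5 M and control 0.5 M. These are orders of means, and several steps lay between groups not called different. Such were the genotypes on both diets for the perilipins, on 0.5 M for bmm and on 0.15 M for Lpin and CG4729. CG3209 varied least, by 1.17-fold, from 341 ± 16.7 in controls on 0.15 M to 399 ± 24.4 in EcRi on 0.15 M.

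Centred log2 profiles over the 12 libraries were compared by their root mean square difference, as a description. Among the 8 genes the closest pair was CG4729 and Lsd-2, at 0.298, and the farthest was mdy and bmm, at 0.906. Among 9118 genes with a mean of at least 10, the profile nearest to Lsd-1 was that of yip2, at 0.109, followed by Tret1-1, at 0.176. For mdy they were Trp1, at 0.162, and alpha-Est7, at 0.176, and for bmm CG8034, at 0.199, and CG3589, at 0.217. The nearest profiles were CG11208 (0.127) and HDAC6 (0.132) for CG4729, pix (0.185) and CG8814 (0.190) for Lpin, and CG3704 (0.130) and Nhe3 (0.141) for Hsl.

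The other genes of the pathway were taken from lists without the 8 members. Of 9 further lipase and lipase-like genes 8 were measured. On 0.15 M none was called higher and 2 lower in EcRi, where 6.19% and 5.01% of all genes were, and without control 0.5 M replicate 1 the count was 4. On 0.5 M 3 were higher and none lower, against 10.9% and 8.11% of all genes. Between the diets 1 was higher in control, against 1.55% of all genes, and 4 were higher in EcRi, against 14%, and none was lower. The interaction was higher for 3, against 2.59% of all genes. The 1 gene of this list called in control was CG1882, at 0.72 ± 0.17 (adjusted p = 0.0354), a call lost without any control 0.15 M or EcRi 0.15 M library, without control 0.5 M replicate 1 or 3, or without EcRi 0.5 M replicate 1 (0.60 to 0.82, adjusted p = 0.0515 to 0.155). The median log2 difference of these 8 was -0.46 for EcRi on 0.15 M and 1.09 for the diet in EcRi, against 0.04 and -0.02 over all genes.

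CG5966, listed as a lipase, had its lowest level in the same group as bmm. Its signal was 3436 ± 662 in controls and 829 ± 74.7 in EcRi on 0.15 M, a difference of -2.03 ± 0.23 (adjusted p = 9.77e-06), and 3860 ± 1324 and 4440.1 ± 836 on 0.5 M, where it was not called. dob, a lipase related to bmm, was lower in EcRi on 0.15 M, at 119 ± 12.4 against 229 ± 22.3 (-0.94 ± 0.20, adjusted p = 0.00462), and higher on 0.5 M than on 0.15 M in EcRi by 0.93 ± 0.20 (adjusted p = 0.00426). CG1882 (current name puml) and CG8552 (PAPLA1), a phospholipase, were not lowest in EcRi on 0.15 M. Like bmm and CG5966, they had their highest means in EcRi on 0.5 M.

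In that group the signal of CG1882 was 885 ± 165, against 257 ± 43.3 in controls on 0.5 M, and that of CG8552 was 1581 ± 404 against 579 ± 32.6. These genotype differences were 1.78 ± 0.17 (adjusted p = 1.24e-06) and 1.42 ± 0.18 (adjusted p = 3.19e-05). The third gene of the lipase and lipase-like list called on 0.5 M, Lip3, had a low signal of 32.8 ± 5.92 in EcRi and 14.2 ± 6.19 in controls. Its difference of 1.22 ± 0.36 (adjusted p = 0.0266) was not called without control 0.5 M replicate 2 or 3 or EcRi 0.5 M replicate 1 or 2 (0.93 to 1.20, adjusted p = 0.0576 to 0.121).

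**Figure D4:**
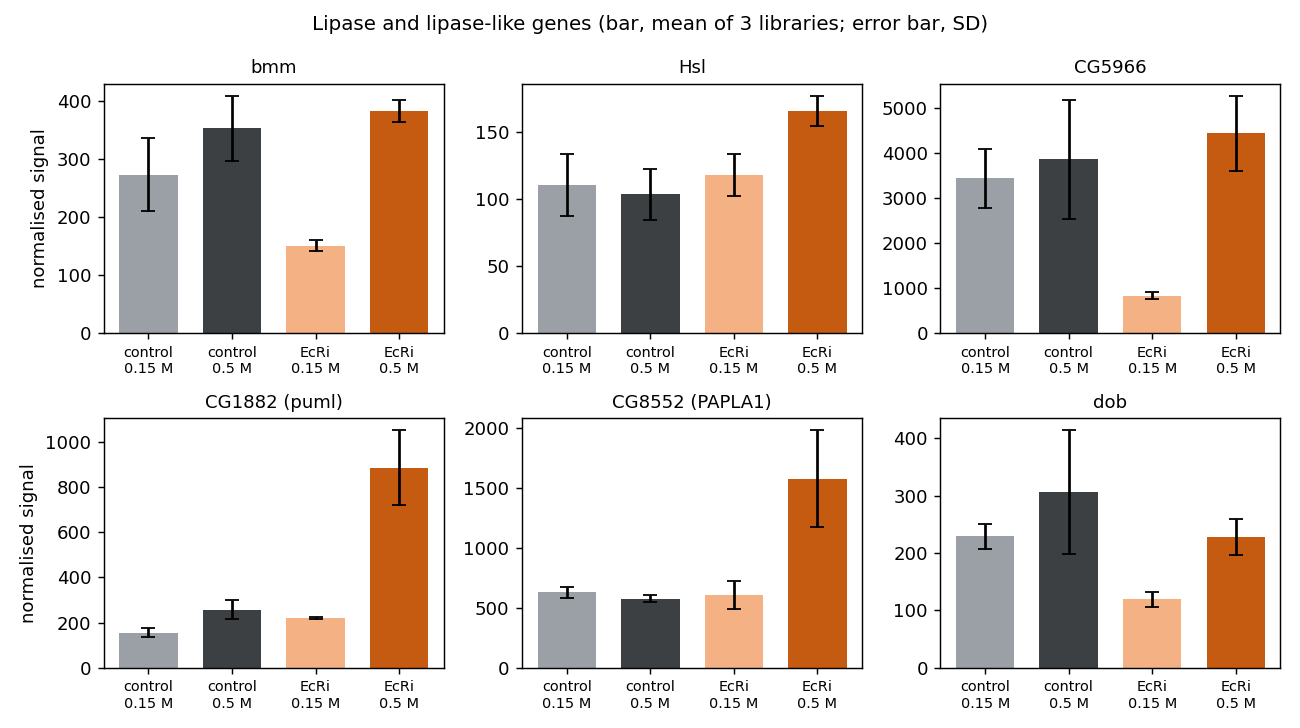
Normalised signal (linear axis from 0) of 6 lipase and lipase-like genes in the 4 groups. Bars are means of 3 libraries and error bars SD. bmm, CG5966 and dob are lowest in EcRi on 0.15 M. All genes shown but dob have their highest mean in EcRi on 0.5 M.

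Of 8 further triglyceride synthesis genes 5 were measured. fu12, whose current name is Agpat2 and which acts in the same step as CG4729, was higher in EcRi on 0.15 M by 1.70 ± 0.27 (adjusted p = 0.000740) and on 0.5 M by 2.31 ± 0.27 (adjusted p = 4.20e-05). Its signal was 142 ± 45.3 and 316 ± 106 in controls on the lower and higher sugar, and 455 ± 102 and 1511 ± 143 in EcRi. CG3812 (Agpat1) was lower on 0.5 M than on 0.15 M in EcRi by -0.88 ± 0.20 (adjusted p = 0.00557). For the diet in EcRi fu12 was higher by 1.75 ± 0.27 (adjusted p = 0.000746). So 1 of the 5 was higher in EcRi on each diet, where 6.19% (0.15 M) and 10.9% (0.5 M) of all genes were. For the diet in EcRi 1 was higher and 1 lower, against 14% and 10.4% of all genes. No other synthesis gene of the list was called.

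Of the 8 lipid droplet genes, all measured, none was called on 0.15 M, and 2 were higher and 1 lower in EcRi on 0.5 M, where 10.9% and 8.11% of all genes were. For the diet in EcRi 2 were higher, against 14% of all genes. Seipin, which acts where droplets form, was higher by 0.89 ± 0.22 (adjusted p = 0.00734), and by 1.04 ± 0.22 (adjusted p = 0.00323) for the diet in EcRi. Cct1, an enzyme of phosphatidylcholine synthesis for the droplet surface, was called in the same comparisons, by 0.57 ± 0.19 (adjusted p = 0.0484) and 0.65 ± 0.19 (adjusted p = 0.0222). The first of these calls was lost without any single library other than control 0.5 M replicate 1 (0.36 to 0.66, adjusted p = 0.0543 to 0.210) and in 5 of 10 other settings. The second was lost without EcRi 0.15 M replicate 1 or 2 or EcRi 0.5 M replicate 1 or 3 (0.58 to 0.63, adjusted p = 0.0673 to 0.0886), and in 3 of 10 other settings, upper quartile scaling among them. CG2254 (Ldsdh1), a dehydrogenase found on droplets, was lower in EcRi on 0.5 M by -1.28 ± 0.27 (adjusted p = 0.00413).

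Among 13 genes of fatty acid supply 6 were higher and 1 lower in EcRi on each diet, and 3 and 8 were higher on 0.5 M in control and EcRi. The shares of all genes were 6.19% and 5.01% on 0.15 M, 10.9% and 8.11% on 0.5 M, and 1.55% and 14% higher for the diet in control and EcRi. Without control 0.15 M replicate 3 the count for the diet in control was 1. ACC, which makes malonyl-CoA for fatty acid synthesis, was higher in EcRi by 2.19 ± 0.22 on 0.15 M (adjusted p = 2.91e-06) and by 2.87 ± 0.22 on 0.5 M (adjusted p = 1.60e-07). Of 12 regulators of fat storage 1 was higher and 1 lower in EcRi on 0.15 M, 5 and 1 on 0.5 M, and 8 were higher for the diet in EcRi, to be read against the same shares. The counts on 0.15 M were near those of all genes, and 4 were called there without control 0.5 M replicate 1. For the diet in EcRi 5 were called higher under upper quartile scaling, and 5 without EcRi 0.15 M replicate 2. foxo, a transcription factor restrained by insulin signalling and known to raise bmm expression, was lower in EcRi on both diets, by -0.72 ± 0.14 (adjusted p = 0.00194) and -0.94 ± 0.14 (adjusted p = 0.000142). GRHR (current name AkhR), the receptor of the adipokinetic hormone that mobilises fat, was higher on 0.5 M in EcRi by 1.12 ± 0.23 (adjusted p = 0.00327). Of 5 genes of lipid export and uptake only CG15828 (Apoltp) was higher in EcRi on each diet, where 6.19% and 10.9% of all genes were. Its differences were 1.11 ± 0.21 and 1.25 ± 0.21 (adjusted p = 0.00192 and 0.000479). LpR1 alone was lower for the diet in EcRi, by -0.46 ± 0.16 (adjusted p = 0.0448), where 10.4% of all genes were. The LpR1 call was lost without any control 0.15 M or EcRi 0.5 M library, control 0.5 M replicate 2 or 3, or EcRi 0.15 M replicate 1 or 2 (-0.50 to -0.39, adjusted p = 0.0506 to 0.156), and under quantile normalisation, the replicate block and only the groups compared.

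Some neighbours bear on how the values can be read. In the Ensembl annotation Lpin shares exon bases with kermit on the same strand and Lsd-1 with CG10214 on the opposite strand, and whether the deposited values were counted by strand is not stated in the sources used here. kermit had a signal of 51.5 to 89.6 in the group means and was not called in any comparison. CG10214 had 66.2 to 122, far below Lsd-1, and was higher for the diet in EcRi by 0.74 ± 0.23 (adjusted p = 0.0286). Among genes of the table mop is the nearest downstream of bmm, on the same strand. It was lower in EcRi on 0.15 M by -0.79 ± 0.14 (adjusted p = 0.00102) and higher for the diet in EcRi by 0.64 ± 0.14 (adjusted p = 0.00468). Its interaction was 1.01 ± 0.20 (adjusted p = 0.0121). bmm shares these calls in direction, and a link between the genes was not tested. dob is the nearest gene of the table downstream of Lsd-2, on the opposite strand.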

How the data were processed

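The authors deposited 1 table of a normalised signal for 10047 genes in 12 libraries. Per the submitters' processing notes, edgeR, Cufflinks (1.1.0), Bowtie (0.12.7) and TopHat (1.3.2) were used, in roles that are not stated. How the signal was scaled, the genome build, the annotation and the strand setting are not given in the sources used here, and no coordinates are printed. No value was 0, and the lowest was 0.0933.

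Values were taken as log2(signal + 1), which understates differences of low genes. A single model of the 4 groups was fitted in limma (version 3.58.1, under R 4.3.3), with trended and robust empirical Bayes. Adjustment ran over all genes. The fit was tested on simulated data. Levels per kb used exon lengths of the Ensembl BDGP6 annotation.

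The members and all lists were chosen with earlier results of these data known. Named beside the members were, by rule, called genes of each list with the smallest p, of which only some are described, and the nearest profiles. EcR, w and Dcr-2 checked the labels. Lists were matched by symbol or gene identifier. Alternatives were the pseudocount, a filter on low genes, scaling, weights, plain empirical Bayes, only the groups compared, a replicate block and leaving out each library.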

Additional observations from a re-analysis of the deposited data

Results flagged for a closer look

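The interaction term in limma, adjusted over all genes, was called for 6 genes among the members and the list genes named by rule. Those list genes were named because they were called in these same tests, so the 6 is not a rate. Among all genes 2.59% were called higher and 1.33% lower for the interaction. bmm had an interaction of 0.96 ± 0.24 (adjusted p = 0.0388), a call lost in 9 of the 12 fits that left out 1 library. The lipase CG5966 had 2.27 ± 0.32 (adjusted p = 0.00168), CG8552 1.48 ± 0.26 (adjusted p = 0.00687) and CG1882 1.27 ± 0.23 (adjusted p = 0.00888), and these 3 stayed called under every alternative run. Mio (current name Mondo), a sugar-sensing transcription factor, had 1.26 ± 0.25 (adjusted p = 0.0122), and 0.0508 with plain empirical Bayes. Men, malic enzyme, which supplies NADPH for fatty acid synthesis, had 1.11 ± 0.30 (adjusted p = 0.0478), a call lost with upper quartile scaling (0.99, adjusted p = 0.0560) and in 10 of the 12 fits that left out 1 library.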

How the results depend on the processing

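For the 8 genes 40 results were recomputed under 872 alternatives in all, of which 792 kept direction and side of the threshold, 30 lost a call, 21 gained one and 29 changed sign. Of 11 called results 7 were kept in every alternative run: mdy on both diets, CG4729 on 0.5 M, bmm on 0.15 M, and Lpin, Lsd-1 and bmm for the diet in EcRi. The cause of the changes below was not tested.

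With library weights 3628 genes were called in EcRi against control on 0.5 M (1915 in the main analysis). For the diet in control, weights gave 4 members and 968 genes, plain empirical Bayes 0 and 67, and only the groups compared 0 and 60 (main 1 and 173). For the diet in EcRi, weights and only the groups compared gave 5 members each. For the interaction, upper quartile scaling gave 0 members, weights 2 and 1546 genes, plain empirical Bayes 0 and 149, and the replicate block 0 and 260. Leaving out 1 library gave 2 to 4 members on 0.5 M, 0 to 4 members and 74 to 359 genes for the diet in control, 3 to 5 and 1355 to 2959 for the diet in EcRi, and 0 to 3 and 141 to 532 for the interaction.

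Storage minus release in EcRi on 0.15 M was 2.07 under quantile normalisation. Without CG4729 it was 1.37 and 1.72 in controls on 0.15 M and 0.5 M, and 2.26 and 1.74 in EcRi. The mean of EcRi on 0.5 M was then above that of control on 0.5 M. With CG4729 included it was below, at 1.41 against 1.67, so this order depended on CG4729. The average was not recomputed without mdy, the only synthesis member called in EcRi against control on 0.15 M. How far the high mean of EcRi on 0.15 M depended on mdy was thus not tested. CG4729 for the diet in control (adjusted p = 0.108) and bmm in the interaction (0.0901) were lost with plain empirical Bayes, as was Lpin on 0.5 M (0.0546).

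Sign changes concerned uncalled genes near 0. With library weights CG3209 on 0.5 M was 0.026, Hsl for the diet in control 0.019, Lsd-1 on 0.5 M 0.29 and Lsd-2 on 0.5 M 0.11. With quantile normalisation Lsd-1 on 0.5 M was 0.043, Lsd-2 in the interaction -0.048 and mdy for the diet in EcRi -0.25. With upper quartile scaling Lsd-2 was 0.0063 on 0.15 M and -0.086 in the interaction, and mdy for the diet in EcRi -0.15. Leaving out 1 library gave ranges of -0.20 to 0.036 for CG3209, -0.17 to 0.31 for Lsd-1 and -0.12 to 0.15 for Lsd-2 on 0.5 M, -0.077 to 0.21 for Hsl, -0.23 to 0.025 for Lpin and -0.18 to 0.050 for Lsd-2 on 0.15 M, -0.27 to 0.078 for Hsl for the diet in control, -0.10 to 0.22 for mdy for the diet in EcRi, and -0.081 to 0.19 for Lsd-2 in the interaction.

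Upper quartile scaling lowered the share of calls that were higher from 57.4% to 46.7% on 0.5 M, from 57.4% to 30.1% for the diet in EcRi and from 66.0% to 39.9% for the interaction. Libraries share replicate numbers across groups. Of 18 same-numbered pairs 2 deviated together with a correlation over 0.1, as did 7 of 36 differently numbered pairs. No pairing by number was seen in this description. Whether the numbers mark a shared batch was not tested, and the labels name none. With the replicate block bmm in the interaction had an adjusted p of 0.0527 and Hsl for the diet in EcRi one of 0.0423. Read depth is unknown, which limits what can be said of low genes.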
